A study of Sus scrofa with 15 samples.

Results

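Of 28224 annotated pig genes measured by RNA-seq in somatic cell nuclear transfer (SCNT) embryos, 9 were near 0 in 4-cell SCNT embryos, near 0 after removal of repressive histone marks, and on after induction of thymine DNA glycosylase (TDG). The choice was made on group means of the normalized read counts. A member had at most 10 in untreated 4-cell embryos (SCNT4c), at most 10 after KDM4A plus GSK126 (SCNT4c-KG) and at least 60 after TDG induction (SCNT4c-TDG). The 9 genes are CCNT2, ZNF654, FAM122A, ANKRD28, TNFSF9, LOC110257337, C1H18orf54, ARMCX2 and LOC110259424. Their values in these 9 libraries chose them, so those values are described here with no test. Fetal fibroblasts (PFF) and 8-cell SCNT embryos (SCNT8c) had no part in the choice. In PFF 6 of the 9 genes reached a mean of 60, and in SCNT8c only FAM122A did.

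The study asked which chromatin marks hold back the transcriptome of cloned pig embryos and whether removing them restores it. SCNT embryos were made by placing the nucleus of a fetal fibroblast into an enucleated oocyte. The series held 5 groups with 3 libraries each. Each embryo library came from a pool of 30 embryos, and the fibroblasts were primary cultures at passages 2 to 5 (PFF). SCNT4c and SCNT8c embryos, collected at the 4-cell and the 8-cell stage, were untreated. SCNT4c-KG embryos were injected with 1000 ng/µl mRNA of KDM4A, an H3K9me3 demethylase, at 5 h after activation and cultured for 48 h in 0.1 µM GSK126, which blocks EZH2, the enzyme that methylates H3K27. SCNT4c-TDG embryos came from donor fibroblasts that carried a doxycycline-inducible vector with pig TDG and had been selected with puromycin, and were given 500 ng/ml doxycycline from 40 to 72 h. No embryos with the vector but without doxycycline, and none with doxycycline alone, were analysed here, so the transgenic donor line, puromycin selection, doxycycline and TDG cannot be told apart. The SCNT4c-TDG samples were also registered apart from those of all other groups. Whether they were prepared or sequenced at another time is not known here, and such a difference could not be told apart from the induction. Titles and descriptions give different numbers to the SCNT4c samples, so their 3 libraries are called a, b and c here. The descriptions of the SCNT4c-KG samples name no treatment and read like those of untreated embryos, so these samples rest on their titles, which match the names in the deposited table. Nothing in the labels says that pools of one group came from separate donor cultures or days, so p-values measure only the spread between these pools.

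In vertebrates, DNA methylation sits on cytosines of CpG sites and tends to keep promoters silent. TET enzymes oxidise 5-methylcytosine stepwise to formyl- and carboxylcytosine. TDG cuts these oxidised bases out of DNA, and base excision repair puts an unmodified cytosine in their place.

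TDG itself lay between 49857 and 59944 normalized reads in the SCNT4c-TDG libraries. It lay between 939 and 2541 in SCNT4c, between 3886 and 4738 in SCNT4c-KG, between 2052 and 2506 in SCNT8c and between 1024 and 1237 in PFF. The difference was 5.13 ± 0.31 (SE) on the log2 scale over SCNT4c (adjusted p = 5.66e-08, limma) and 3.67 ± 0.31 over SCNT4c-KG (adjusted p = 7.04e-06). Reads of the introduced and the resident gene could not be separated. Recovered reads ranged from 12354649 to 15390472 in SCNT4c-KG and from 17757929 to 22868038 in the other groups. After the authors' scaling, the limit of 10 stood for 6.12 to 7.88 reads in SCNT4c-KG, 7.85 to 8.39 in PFF and 11.4 to 13.1 in SCNT4c and SCNT4c-TDG. A value of 0 in this table does not always mean that a gene was silent. SDHA, a mitochondrial enzyme subunit that every cell uses, was listed at 0 in all 15 libraries, and EEF1A1, a translation factor, was at most 37.6. Both share a locus with assembled transcripts, as do 16056 of the annotated genes and 6 of the 9 members (all but LOC110259424, LOC110257337 and ARMCX2). How reads shared by a gene and such a transcript were counted was not tested. In these bulk pools, fewer cells with a transcript and less of it per cell cannot be told apart.

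The 9 genes lie on 6 chromosomes in build Sscrofa11.1. 8 are protein coding and 1 is a long non-coding RNA. Summed over all 9, the normalized reads were 39.4 to 51.6 in SCNT4c, 35.9 to 48.4 in SCNT4c-KG, 728 to 879 in SCNT4c-TDG, 66.6 to 180 in SCNT8c and 949 to 1164 in PFF. Of the 54 single values in SCNT4c and SCNT4c-KG, 19 were 0 and 6 were above 10. In SCNT4c-TDG, 4 of the 9 genes were at 60 or more in all 3 libraries and 5 were so in 2 of them. In 8 of the 9, the lowest SCNT4c-TDG library lay above all 6 libraries of the other 4-cell groups, a separation that the choice itself favours, and the exception was ARMCX2.

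**Figure D1:**
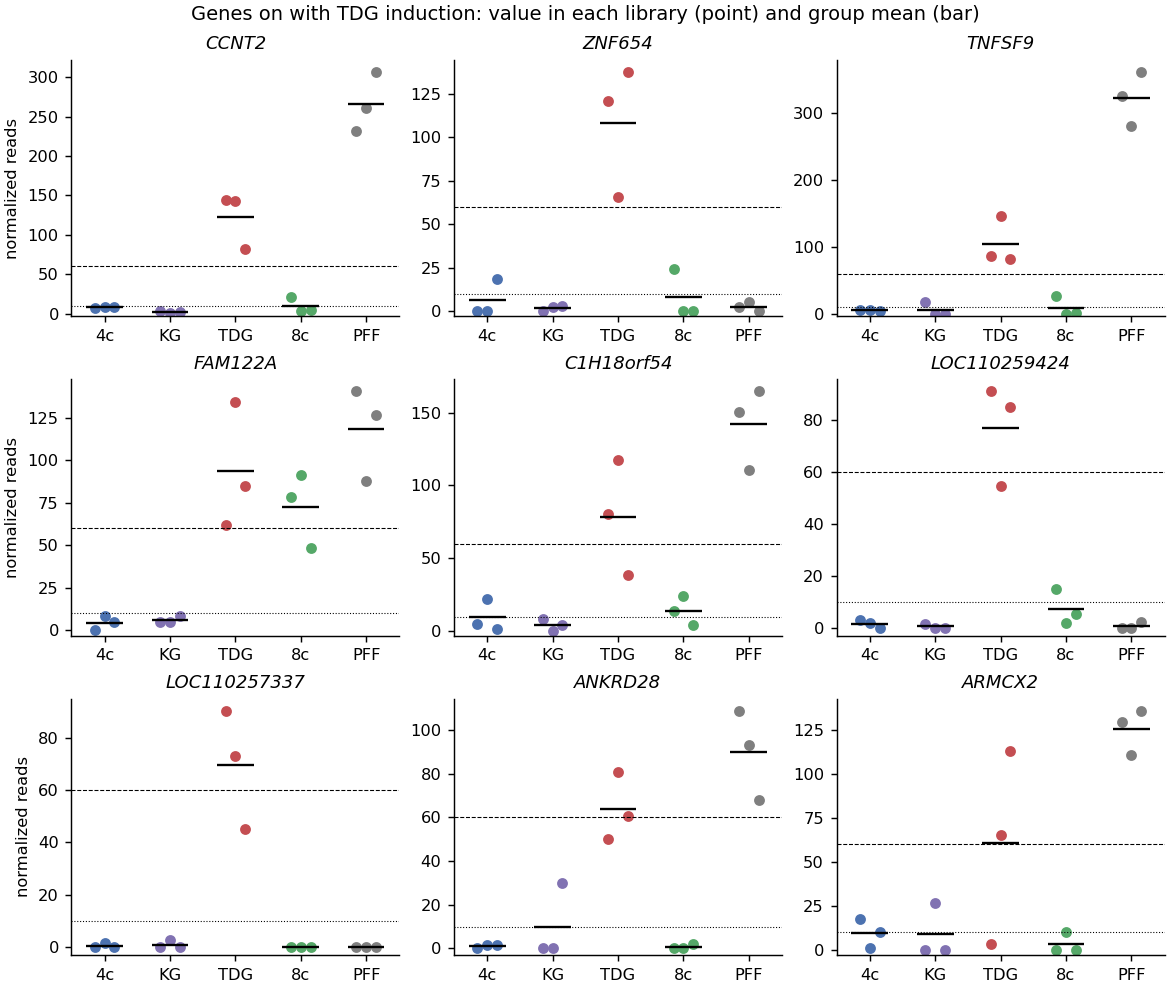
Normalized reads (vertical axis, linear, its range differing between panels) of the 9 genes in each of the 15 libraries, by group (4c, SCNT4c; KG, SCNT4c-KG; TDG, SCNT4c-TDG; 8c, SCNT8c). Points are libraries, bars are means of 3, and the dotted and dashed lines mark the limits of 10 and 60. The TDG points lie above the other 4-cell groups in all panels but for 1 point of ARMCX2, and the PFF points are near 0 for ZNF654, LOC110259424 and LOC110257337 only.

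CCNT2 encodes cyclin T2, which pairs with the kinase CDK9 in the complex that releases RNA polymerase II into elongation. It lies on the minus strand at chr15:16974364-17021293. Its values were 7.89, 8.74 and 9.13 in SCNT4c, 3.27, 1.27 and 2.85 in SCNT4c-KG, and 144, 143 and 81.9 in SCNT4c-TDG, the highest mean of the 9 genes (123 ± 35.4, SD, n = 3). SCNT8c had 21.5, 4.16 and 4.23, and PFF had 232, 261 and 306. The SCNT8c and PFF libraries did not overlap, and SCNT8c was lower by 4.97 ± 0.66 (SE) on the log2 scale (adjusted p = 0.000707, limma), beside 70.5% of all 18448 features tested that were called in either direction. CCNT2, TNFSF9, ANKRD28 and ARMCX2 had SCNT8c means under 10 and could be tested only because PFF was high, so they had to differ and their p-values are no support.

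ZNF654 encodes a zinc finger protein and lies on the minus strand at chr13:167807705-167895783. It was 0, 0 and 18.3 in SCNT4c, so library c alone carried its reads there. SCNT4c-KG had 0, 2.54 and 2.85, and SCNT4c-TDG had 121, 66.0 and 138. It stayed low in both groups outside the choice, with 24.3, 0 and 0 in SCNT8c and 2.44, 5.09 and 0 in PFF. It was therefore on in SCNT4c-TDG and not in PFF. The transgenic fibroblast line from which the SCNT4c-TDG embryos were made was not analysed here, so PFF values do not show the level in the donors of these embryos.

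A pair of members regulate protein phosphatases. FAM122A, at chr1:222114314-222122337 on the plus strand, is an inhibitor of protein phosphatase 2A, and ANKRD28, at chr13:2922855-3135743 on the minus strand, is a regulatory subunit of protein phosphatase 6. FAM122A had 0, 8.74 and 4.98 in SCNT4c, 4.90, 5.08 and 8.55 in SCNT4c-KG, and 61.9, 134 and 84.9 in SCNT4c-TDG. It was the only member with a mean of 60 or more in SCNT8c, where the libraries had 78.4, 91.4 and 48.6. PFF had 140, 87.9 and 126. The SCNT8c and PFF libraries overlapped, and the difference of -0.71 ± 0.40 (SE, log2) did not pass the test (adjusted p = 0.152, limma). Its gene model lies wholly inside PIP5K1B on the same strand. PIP5K1B had a mean of 65.8 in SCNT4c, 18.1 in SCNT4c-TDG and 0 in PFF, and its difference between SCNT4c-TDG and SCNT4c did not pass the test (adjusted p = 0.164, limma).

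ANKRD28 had 0, 1.75 and 1.66 in SCNT4c, against 50.2, 80.5 and 60.4 in SCNT4c-TDG. Its SCNT4c-KG libraries had 0, 0 and 29.9, a mean of 9.97 that lies just under the limit of 10 and rests on 1 library. PFF had 109, 93.0 and 67.9 against 0, 0 and 2.11 in SCNT8c, without overlap and with a difference of -5.93 ± 0.61 (adjusted p = 0.000265).

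At the cell surface, TNFSF9 is the ligand of the receptor CD137, which costimulates T cells. The gene has 3 exons at chr2:72578811-72582834 on the minus strand. It had 6.31, 6.12 and 4.98 in SCNT4c, 18.0, 0 and 0 in SCNT4c-KG, and 87.0, 146 and 81.9 in SCNT4c-TDG. Its PFF values of 325, 280 and 361 were the highest of the 9 genes there, while SCNT8c had 27.1, 0 and 2.11. The SCNT8c level was lower than PFF by 6.18 ± 1.18 on the log2 scale (adjusted p = 0.0035), again without overlap.

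C1H18orf54, at chr1:103861579-103885057 on the plus strand, is the pig homolog of a human open reading frame. Its libraries had 4.73, 21.8 and 1.66 in SCNT4c, 8.17, 0 and 4.27 in SCNT4c-KG, and 80.3, 117 and 38.3 in SCNT4c-TDG. PFF had 150, 111 and 164 and SCNT8c had 14.0, 24.1 and 4.23, a difference of -3.49 ± 0.64 (adjusted p = 0.0030). An assembled transcript of its bundle went the other way, with means of 20.8 in PFF and 407 in SCNT8c, given with no test. ARMCX2, at chrX:83213939-83218601 on the minus strand, belongs to a family of armadillo-repeat genes on the X chromosome. It had the lowest SCNT4c-TDG mean and the widest spread of the 9 genes (60.6 ± 55.1, SD, n = 3). SCNT4c-TDG had 3.34, 65.2 and 113, so library 1 lay below 3 of the 6 libraries of the other 4-cell groups, at 17.4, 0.87 and 9.96 (SCNT4c) and at 0, 26.6 and 0 (SCNT4c-KG). In PFF it was steady at 129, 111 and 136, and SCNT8c had 0, 9.98 and 0 (difference -5.82 ± 0.99, adjusted p = 0.0022).

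LOC110259424 is a long non-coding RNA of 2 exons at chr2:101376932-101383413 on the plus strand. It was low in both other 4-cell groups, at 3.15, 1.75 and 0 in SCNT4c and at 1.63, 0 and 0 in SCNT4c-KG, against 91.2, 54.5 and 84.9 in SCNT4c-TDG. PFF listed 0, 0 and 2.38, and SCNT8c had 14.9, 1.66 and 5.28. It was thus another gene on in SCNT4c-TDG and not in PFF.

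LOC110257337 is annotated as annexin-2 receptor-like and is a single coding exon of 543 bases at chr16:27694593-27695135 on the plus strand. Its values were 0, 1.75 and 0 in SCNT4c, 0, 2.54 and 0 in SCNT4c-KG, and 90.3, 72.9 and 45.1 in SCNT4c-TDG. It was listed at 0 in all 3 libraries of SCNT8c and all 3 of PFF. Per kilobase of exon it had the highest SCNT4c-TDG level of the 9 genes, 128 normalized reads, ahead of TNFSF9 with 46.7 and FAM122A with 32.9. ANKRD28 had the lowest, 4.80.

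LOC110257337 belongs to a cluster of near-identical genes, and was the only member with a near-identical copy of its exons elsewhere in the build. Its sequence differed from LOC110257336 at 1 base of 543 and from LOC102162127 at 3, while LOC110257338 was 90.1% identical and ANXA2R, the annotated gene of that name in the cluster, 53.8%. The stretches around the base that sets LOC110257337 apart are shown, in 5′ to 3′ direction of each gene, with that base in capitals. In the notation LOC110257337 first, copy second, counted from 1 at the first base of the model, the change is C244A in LOC110257336 and in LOC102162127, and the latter also carries T443C and T540C.
LOC110257337 (chr16:27694806-27694866, plus strand): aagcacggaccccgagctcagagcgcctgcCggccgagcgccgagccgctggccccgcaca
LOC110257336 (chr16:27681483-27681543, plus strand): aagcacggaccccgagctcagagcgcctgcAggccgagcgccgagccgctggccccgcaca
LOC110257338 (chr16:27700512-27700572, plus strand): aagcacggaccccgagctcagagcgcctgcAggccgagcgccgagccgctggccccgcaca
LOC102162127 (chr16:27762595-27762655, minus strand): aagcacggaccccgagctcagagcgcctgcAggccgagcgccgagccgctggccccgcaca
Of the 394 windows of 150 bases in LOC110257337, 150 cover the C and matched no other copy, and 244 were found unchanged in another copy. The authors kept uniquely mapped reads, so the value of LOC110257337 rests on few positions and is uncertain. LOC102162127 differs from LOC110257336 only at bases 443 and 540, so the same holds for the value of LOC102162127.

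Both LOC110257338 and LOC102162127 rose over SCNT4c, beside 15.7% of all 18942 features tested that were higher in SCNT4c-TDG and 33.3% called in either direction. LOC110257338, at chr16:27700299-27700859, had 30.0, 14.0 and 1.66 in SCNT4c, 165, 102 and 131 in SCNT4c-KG, and 1734, 1164 and 877 in SCNT4c-TDG. It rose by 6.82 ± 0.78 (SE, log2) over SCNT4c (adjusted p = 1.41e-05, limma) and by 3.21 ± 0.78 over SCNT4c-KG (adjusted p = 0.0113). LOC102162127, at chr16:27762326-27762868, had 189, 153 and 94.1 in SCNT4c-TDG against 14.2, 3.50 and 1.66 in SCNT4c, a rise of 4.63 ± 1.02 (adjusted p = 0.0029). Its difference from SCNT4c-KG, 2.63 ± 1.02, did not pass the test (adjusted p = 0.0935). LOC110257336 had at most 2.30 in any library and ANXA2R was listed at 0 throughout. PFF listed all of these at 0, and no SCNT8c library was above 12.7 in any of them. Each stretch of 150 bases in LOC110257336 also occurs in LOC110257337 or LOC102162127. With uniquely mapped reads it could stay near 0 at any level, so its low value is no contrast to the copies that rose. LOC110257338 and LOC102162127 were no members because their SCNT4c or SCNT4c-KG means were above 10.

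**Figure D2:**
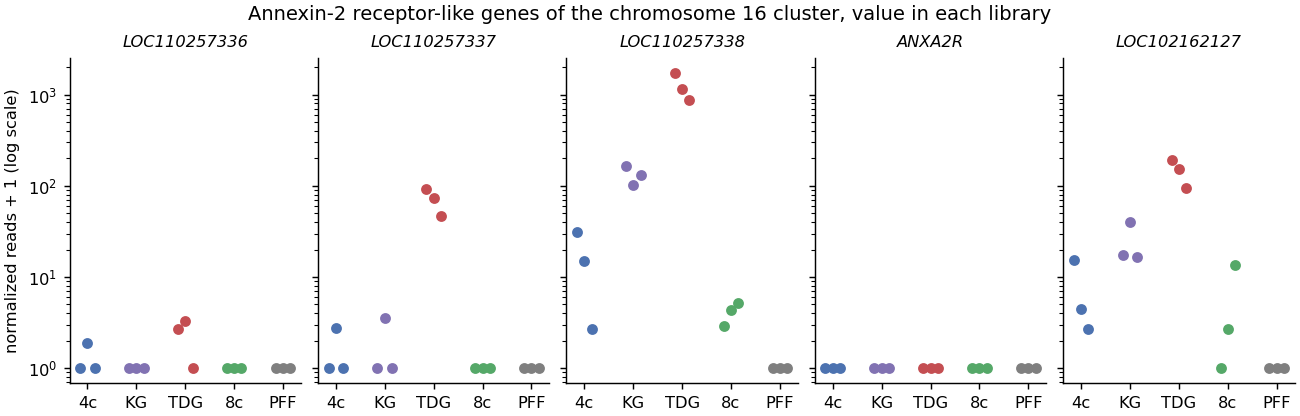
Normalized reads plus 1 (vertical axis, log scale) of 5 annexin-2 receptor-like genes of chromosome 16 in each library, by group (4c, SCNT4c; KG, SCNT4c-KG; TDG, SCNT4c-TDG; 8c, SCNT8c). Points are libraries. LOC110257337, LOC110257338 and LOC102162127 have their 3 highest points in TDG. ANXA2R stays at 0 and LOC110257336 at most at 2.30. LOC110257336 has no stretch of 150 bases of its own, so its value does not show its level.

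Because 3 libraries per group set the choice, the choice was repeated without each of the 9 libraries, and the library left out was then read for the genes chosen. Without 1 SCNT4c-TDG library, 8 to 11 genes were chosen, of which 6 to 8 were among the 9. Of the 28 values read in this way in the SCNT4c-TDG library left out, 17 were at 60 or more and 26 were above 30. Without 1 library of SCNT4c or SCNT4c-KG, 41 of the 70 values read in the library left out were at 10 or less. Library 2 of SCNT4c-KG weighed most, since 16 genes were chosen without it and 7 of these were at 10 or less in it. In SCNT4c-KG, the group of lowest depth, 46.2%, 43.8% and 53.8% of the genes were at 10 or less, against 77.8%, 70.0% and 77.8% in SCNT4c. The part of depth in this was not tested. CCNT2, FAM122A, TNFSF9, ZNF654 and LOC110259424 were chosen in all 9 repeats.

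**Figure D3:**
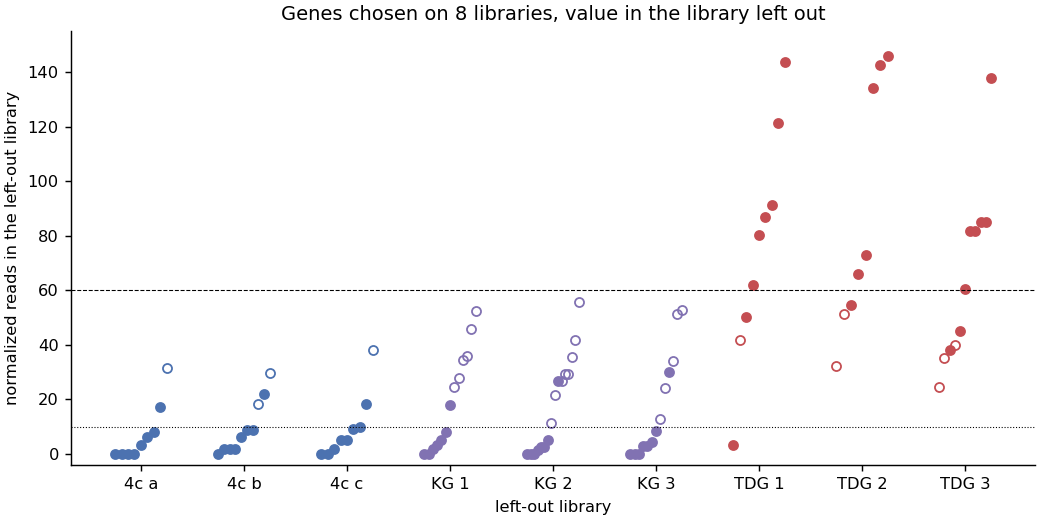
Normalized reads in the library left out (vertical axis) for the genes chosen on the other 8 libraries, by left-out library (4c, SCNT4c; KG, SCNT4c-KG; TDG, SCNT4c-TDG). Filled points are the 9 genes described, open points are other genes, and the dotted and dashed lines mark 10 and 60. Most TDG values stay high, 17 of 28 at 60 or more, and the highest values in KG, up to 55.8, belong to other genes.

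Several genes lay close to the limits. Just inside 60 in SCNT4c-TDG were ARMCX2 with a mean of 60.6, ANKRD28 with 63.7, LOC110257337 with 69.4, LOC110259424 with 76.8 and C1H18orf54 with 78.6. Just outside were LOC110256444 with 58.5, NSMCE4A with 58.2, LOC110257342 with 55.6, RUNX3 with 55.3 and SAA3 with 54.8. In all, 67 genes that met the low limits had a SCNT4c-TDG mean from 30 to 60.

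The level in PFF separates the members into 6 that were on in PFF and 3 that were not. CCNT2, TNFSF9, C1H18orf54, ARMCX2, FAM122A and ANKRD28 had PFF means between 89.9 and 322, and their SCNT4c-TDG means came to 32.6% to 79.2% of these. Of the other genes that met both low limits, 872 of 13770 (6.33%) had a PFF mean of 60 or more, against 6 of 9 (66.7%) here. Over all 28224 annotated genes, 8370 (29.7%) had such a mean in PFF and 7018 (24.9%) in SCNT8c. Among 128 genes at 60 or more under both treatments and at most 10 in SCNT4c, the count was 65 (50.8%), and among 65 genes on with KDM4A plus GSK126 only, it was 7 (10.8%). These shares are given with no test. In SCNT8c, 1 of the 9 members had a mean of 60 or more, as did 6 of the 13770, 0 of the 128 and 0 of the 65.

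**Figure D4:**
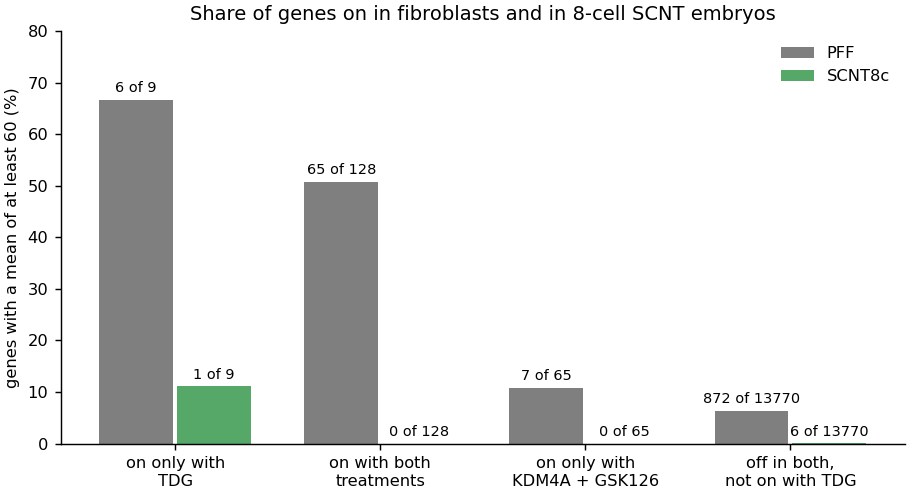
Share of genes (vertical axis, percent) with a mean of at least 60 normalized reads in PFF or SCNT8c, for the 9 genes on only with TDG induction and for 3 other sets of genes with a SCNT4c mean of at most 10. Counts stand above the bars. The PFF share is 66.7% for the 9 genes, 50.8% for genes on with both treatments and 10.8% for genes on only with KDM4A plus GSK126. It is 6.33% for the other genes at most at 10 in SCNT4c and SCNT4c-KG.

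The 6 members on in PFF were the 6 that could be tested between SCNT8c and PFF. 5 of them were lower in SCNT8c and FAM122A was not called, beside 36.8% of all 18448 features tested that were lower in SCNT8c and 33.7% that were higher. With edgeR on the recovered reads, 5178 features were lower and 7330 higher, in place of 6793 and 6220. Of the 5, C1H18orf54 alone had an SCNT8c mean above 10, so the count is no support. Library 1 was the highest of the SCNT8c libraries for CCNT2, TNFSF9, ZNF654 and LOC110259424, and 10 of the 27 SCNT8c values of the 9 genes were 0.

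Since 6 members were on in PFF, fibroblast markers are given beside them. All 12 had a PFF mean above 10, with a sum of 4119129 to 4418662. The sum was 2137 to 2451 in SCNT4c-TDG, 5459 to 6411 in SCNT4c, 2950 to 5956 in SCNT4c-KG and 2294 to 2858 in SCNT8c. In SCNT4c-TDG, 8 of the 12 had a mean above 10, and none was higher than in SCNT4c while 4 of the 10 tested, TAGLN, DCN, COL1A1 and COL1A2, were lower (15.7% of all 18942 features tested were higher and 17.6% lower). LUM, COL6A3, DCN and POSTN had SCNT4c-TDG means under 10. The part of fibroblast RNA in the members' values was not tested. Of 9 embryo markers, 6 had a mean above 10 in each embryo group and 1 did in PFF, so embryo and fibroblast libraries were marked as labelled. GDF9 and BMP15 were listed at 0. The embryo markers summed to 57208 to 65610 in SCNT4c-TDG, 164431 to 226099 in SCNT4c, 111451 to 188302 in SCNT4c-KG and 51154 to 143690 in SCNT8c. Of the 6 tested, ZP4 (-2.76 ± 0.29, SE, log2), H1FOO (-3.25 ± 0.54) and NLRP5 (-2.01 ± 0.53) were lower and DPPA3 (2.85 ± 0.42) was higher in SCNT4c-TDG than in SCNT4c, and ZP4, ZP3 and H1FOO were lower than in SCNT4c-KG. The part of this shift in the members' values was not tested. The 7 cumulus cell markers measured summed to 610 to 788 in SCNT4c-TDG and to 1708 to 2191 in SCNT4c, with 1 of the 4 tested lower and 0 higher.

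At the loci of the members, 60 other features lay in the same transcript bundle or within 20000 bases, and 38 could be tested. 4 were higher and 3 lower in SCNT4c-TDG than in SCNT4c, or 10.5% and 7.89%, below the 15.7% and 17.6% of all features. Against SCNT4c-KG, 3 were higher and 0 lower, beside 7.07% and 9.13% of all features, or 16.2% in either direction. With the same total reads in each library, the split over all features was 2019 higher to 1144 lower, in place of 1340 to 1730. The 4 that rose over SCNT4c were LOC110257338 and 3 assembled transcripts, in the bundles of CCNT2, ZNF654 and ANKRD28. The one at ZNF654 had means of 3.56 in SCNT4c, 132 in SCNT4c-KG and 41.9 in SCNT4c-TDG, so its highest 4-cell mean was with KDM4A plus GSK126 and not with TDG induction. It rose by 3.03 ± 0.89 over SCNT4c (adjusted p = 0.0166), and its difference from SCNT4c-KG, -1.75 ± 0.89, did not pass (adjusted p = 0.201). The one at CCNT2 had means of 0.28 in SCNT4c, 10.7 in SCNT4c-KG, 75.7 in SCNT4c-TDG, 10.9 in SCNT8c and 167 in PFF, and rose by 5.97 ± 1.13 over SCNT4c (adjusted p = 0.00093). It reached the minimum mean of 10 only through SCNT4c-TDG. This call, 1 of the 4 higher, therefore had to come and its p-value is no support. Its difference from SCNT4c-KG, 2.99 ± 1.13, did not pass (adjusted p = 0.0838). At ANKRD28, an assembled transcript with a mean of 62.5 in SCNT4c and 192 in SCNT4c-TDG rose by 1.63 ± 0.61 (adjusted p = 0.0498), and another had 234 in SCNT4c and 271 in SCNT4c-TDG. The 3 that fell were an assembled transcript in the bundle of FAM122A, with means of 259 in SCNT4c, 200 in SCNT4c-KG and 99.7 in SCNT4c-TDG (-1.39 ± 0.45, adjusted p = 0.0272), CRB3 near TNFSF9 (-2.31 ± 0.49, adjusted p = 0.00231) and an assembled transcript near LOC110257337 (-5.75 ± 1.11, adjusted p = 0.00108). In the bundle of C1H18orf54, an assembled transcript had means of 53.6 in SCNT4c, 14.2 in SCNT4c-KG and 52.9 in SCNT4c-TDG. Assembled transcripts at the ANKRD28, FAM122A and C1H18orf54 loci were thus present in untreated embryos, where the gene entries were near 0. In SCNT8c they had higher means than in PFF. At ANKRD28 these were 655 against 0 and 197 against 16.2. At FAM122A it was 211 against 0.81, and at C1H18orf54 407 against 20.8. The one at CCNT2, given above, was lower in SCNT8c. These means are given with no test. When the assembled transcripts of a locus were added to the gene, 4 of the 9 were still chosen: ARMCX2, LOC110257337, LOC110259424 and TNFSF9.

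ZNF654 shares its bundle with CGGBP1, whose means were 12095 in SCNT4c, 5149 in SCNT4c-KG and 9664 in SCNT4c-TDG, and with HTR1F, a serotonin receptor gene, at 32.4, 97.7 and 211. The differences between SCNT4c-TDG and SCNT4c were -0.32 ± 0.31 (SE, log2) for CGGBP1 and 2.20 ± 0.84 for HTR1F, and neither passed the test (adjusted p = 0.448 and 0.0553, limma). CCNT2 overlaps MAP3K19 on the opposite strand over 2235 bases. The strand setting of the counting is not given in the sources used here, so reads of the 2 genes in that stretch cannot be told apart.

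Since TDG acts at CpG sites, the starts of the genes were described by their CpG content. Within 500 bases to either side of the annotated start, the members had 3 to 122 CpG sites, with a median of 66. The median was 44 over 24878 genes with a start in the build (quartiles 17 and 75) and 68 over the 8305 of these with a PFF mean of 60 or more. For the 6 members with such a PFF mean it was 50.5. ANKRD28 with 122 and ZNF654 with 99 lay above 95.7% and 88.6% of genes. LOC110259424 with 5 and FAM122A with 3 lay above 3.85% and 1.18%. The models of FAM122A and LOC110257337 begin at their coding sequences, so the true starts of both may lie further upstream. Methylation was not analysed here.

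**Figure D5:**
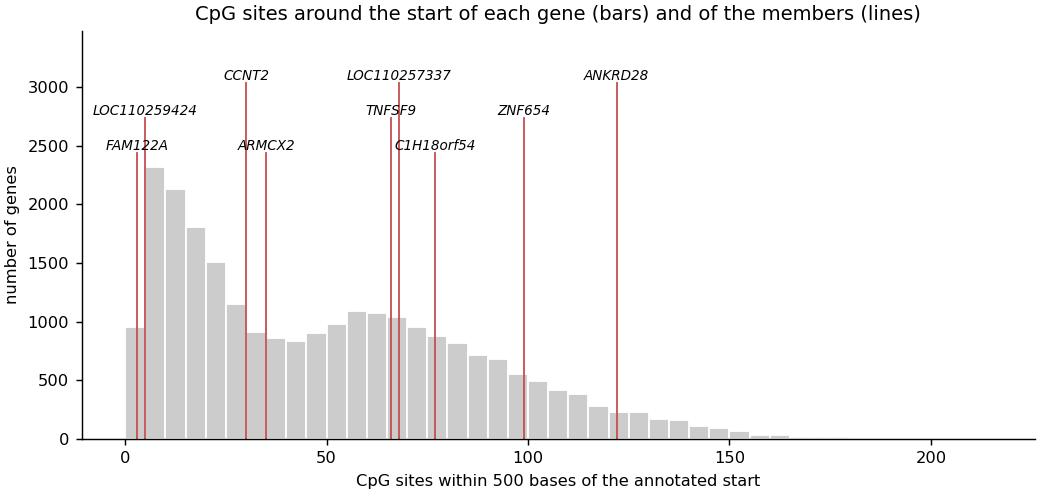
Number of genes (vertical axis) by the count of CpG sites within 500 bases of the annotated start (horizontal axis, bars of 5 sites), with red lines at the 9 members. The members lie from 3 sites in FAM122A to 122 in ANKRD28.

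The 200 bases before the annotated start are shown for ANKRD28, which had the most sites, and for the 3 members that were off in PFF, in the direction of transcription with CpG sites in capitals.
ANKRD28 (chr13:3135744-3135943, minus strand): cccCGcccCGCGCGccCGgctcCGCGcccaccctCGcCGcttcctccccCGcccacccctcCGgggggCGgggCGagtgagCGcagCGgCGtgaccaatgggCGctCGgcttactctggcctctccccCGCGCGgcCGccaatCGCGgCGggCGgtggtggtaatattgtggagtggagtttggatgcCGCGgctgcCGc
ZNF654 (chr13:167895784-167895983, minus strand): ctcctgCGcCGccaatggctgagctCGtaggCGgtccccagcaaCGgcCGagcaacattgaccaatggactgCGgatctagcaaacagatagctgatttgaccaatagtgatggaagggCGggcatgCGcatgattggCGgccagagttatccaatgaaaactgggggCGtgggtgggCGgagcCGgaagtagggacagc
LOC110259424 (chr2:101376732-101376931, plus strand): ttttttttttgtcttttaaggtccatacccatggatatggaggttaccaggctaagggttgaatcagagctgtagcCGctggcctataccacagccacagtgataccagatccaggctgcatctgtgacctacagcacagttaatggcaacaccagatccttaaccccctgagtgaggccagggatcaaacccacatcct
LOC110257337 (chr16:27694393-27694592, plus strand): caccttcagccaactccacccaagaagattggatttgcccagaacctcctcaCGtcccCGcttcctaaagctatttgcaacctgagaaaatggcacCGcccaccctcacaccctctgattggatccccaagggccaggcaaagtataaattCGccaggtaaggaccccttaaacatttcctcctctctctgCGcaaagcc
In these 200 bases ANKRD28 held 29 CpG sites and ZNF654 held 13, against 5 in LOC110257337 and 1 in LOC110259424. FAM122A, not shown, held 0. The motif CCAAT, searched on both strands, was found in 6 of the 9 members and in 27.6% of all genes. GGGCGG was found in 4 of the 9 and in 38.8% of genes, and TATAAA in 1 of the 9, LOC110257337, and in 7.99% of genes. A match describes the letters and not a bound factor. The models of FAM122A and LOC110257337, both among those with CCAAT, begin at their coding sequences. Their windows, with the TATAAA match, may therefore not lie at the true start.

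Among 35 genes of DNA methylation, DNA demethylation and base excision repair, 23 were tested. Against SCNT4c, 5 were higher and 7 lower in SCNT4c-TDG (15.7% and 17.6% of all features). The 5 include TDG, the gene that was induced. The median difference of the 23 was -0.002 beside -0.26 over all features. Besides TDG, those that rose included MBD4, another glycosylase for mismatched thymine (5.33 ± 0.58), NTHL1, a glycosylase for oxidised pyrimidines (2.52 ± 0.64), and DNMT1, the maintenance methyltransferase (2.02 ± 0.75). Those that fell were the uracil glycosylase UNG (-3.31 ± 0.37), the glycosylases NEIL1 (-2.86 ± 0.70), NEIL2 (-3.59 ± 1.14) and NEIL3 (-2.03 ± 0.43), the flap nuclease FEN1 (-2.59 ± 0.71), the DNMT1 partner UHRF1 (-2.73 ± 0.96) and GADD45A (-1.89 ± 0.58), all with SE on the log2 scale and adjusted p between 5.66e-08 and 0.0492. The calls of DNMT1, UHRF1 and NEIL2 were each lost in 5 of 6 repeats without 1 library and that of GADD45A in 4 of 6, with adjusted p up to 0.162, 0.145, 0.0860 and 0.109. DNMT1 kept its call without SCNT4c library a, UHRF1 without SCNT4c-TDG library 3, NEIL2 without SCNT4c library c, and GADD45A without SCNT4c library c or SCNT4c-TDG library 1. Against SCNT4c-KG, TDG was higher, and DNMT1 (-3.61 ± 0.75), FEN1 (-4.49 ± 0.71), UNG (-2.48 ± 0.37), UHRF1 (-3.21 ± 0.96) and GADD45B (-1.75 ± 0.53) were lower (7.07% of all features were higher and 9.13% lower). The calls of UHRF1 and GADD45B there were lost in 4 and 5 of 6 repeats without 1 library, with adjusted p up to 0.136 and 0.130. UHRF1 kept its call without SCNT4c-KG library 3 or SCNT4c-TDG library 3, and GADD45B without SCNT4c-KG library 3. TET1, TET2 and TET3 were listed at 0 in all 15 libraries. In all, 4062 annotated genes were so listed, SDHA among them, so these values do not show that the TET genes were silent. No member was in this list or in any of the other lists of genes.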

How the data were processed

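RNA-seq of 15 libraries was analysed from the table that the authors deposited. Per the labels and methods, cDNA made with a SMARTer Pico kit was amplified by PCR, sequenced as paired reads of 150 bases, trimmed with Trimmomatic 0.39 and mapped to Sscrofa11.1 with STAR 2.5.3a. Uniquely mapped reads were kept, StringTie 2.1.2 assembled further transcripts, and HTSeq counted reads per feature. The unit of the deposited values is a normalized signal: the authors divided the counts of each library by 1 factor. Dividing by the value of 1 read gave whole reads for 100% of the entries of each library (tolerance 0.01). After removal of 241 repeated entries, 43294 features remained, of which 28224 were annotated genes and 15070 assembled transcripts.

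Group means of the deposited signal chose the members. The members and all lists were chosen with earlier results of these data known. SCNT8c was compared with PFF in a fit of these 6 libraries, and genes that are no members were compared between SCNT4c-TDG and SCNT4c or SCNT4c-KG in a fit of the 12 embryo libraries, with limma 3.58.1 in R 4.3.3 on log2(value + 1) with an intensity trend. Features were tested from a mean of 10 upwards, p-values were adjusted by the Benjamini-Hochberg method over all of them, and features with an adjusted p under 0.05 that differed by a fold above 2 were called. For low values this scale gives too small a fold. An exact permutation test (two-sided) cannot go below p = 0.1 with 3 libraries a group. The fits were tested on simulated data.

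Named genes were TDG, the members, the 5 genes to either side of the limit of 60 and the list genes that passed a test, of which 1 is not reported here. Other genes were chosen after their values were seen, among them the copies of LOC110257337, SDHA and EEF1A1. The lists reported are DNA methylation, DNA demethylation and base excision repair as 1 list, and fibroblast, embryo and cumulus markers. Alternatives were other limits, pseudocounts, filters and scalings, edgeR 4.0.16 and DESeq2 1.42.0 on recovered reads, a replicate block, and each library left out. Same-numbered libraries did not deviate together (correlations -0.017 to 0.033), so equal numbers were taken as names only. Gene positions came from the RefSeq annotation of Sscrofa11.1, sequences from its genome with samtools 1.23.1, alignments from Biopython 1.88 and copies from BLAST 2.17.0.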

Additional observations from a re-analysis of the deposited data

How the results depend on the processing

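The number of genes chosen, 9, moved most with the limits. It was 0 with limits of 5 and 120 and 229 with limits of 20 and 30. It was 2 (CCNT2 and FAM122A) when every library had to meet its limit, 20 (7 of the 9 among them) with the same total reads in each library, 22 (all 9 among them) with quantile normalization, and 4 when the assembled transcripts of a locus were added. It ranged from 8 to 16 without 1 library. With a limit of 120 in place of 60, 0 members were on in SCNT8c and 4 in PFF. Without 1 library of SCNT8c or PFF, the numbers on at the limit of 60 stayed at 1 and 6.

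For the 6 members tested between SCNT8c and PFF, all 95 values under the alternatives kept their direction and their side of the threshold, with adjusted p from 0.0849 to 0.939 for FAM122A. For CCNT2, TNFSF9, ANKRD28 and ARMCX2 this says nothing about stability, since they were tested only through their PFF level. Over all features, SCNT8c against PFF gave 13013 calls, 12870 with the replicate block and 11171 to 13358 without 1 library. SCNT4c-TDG against SCNT4c gave 6300 calls, and 4496 to 5249 without 1 library. SCNT4c-TDG against SCNT4c-KG gave 3070 calls, 4989 in a fit of the 2 groups alone, 4805 with the replicate block in that fit, and 1794 to 2521 without 1 library. A replicate block could not be used with SCNT4c, whose columns carry no usable number.

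Scaling changed the split of higher to lower calls. For SCNT8c against PFF it was 6220 to 6793, but 7330 to 5178 with edgeR and 7843 to 5565 with DESeq2, and the median over all features was -0.15, 0.69 and 0.73 on the log2 scale. For SCNT4c-TDG against SCNT4c-KG it was 1340 to 1730, but 2019 to 1144 with the same total reads in each library, where the median was 0.33 in place of -0.02. Few reads stand behind the limit of 10, at the least 6.12 to 7.88 in SCNT4c-KG.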

Other observations

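Genes that missed the set under the limits used, and joined it under another setting, are described here by their values. Leaving aside the limits of 20 and 30, 37 genes joined in at least 1 of 14 settings. 18 of these 37 had a PFF mean of 60 or more, and 1 had such a mean in SCNT8c. SAA3, an acute-phase serum amyloid gene, joined in 4 settings. It was listed at 0 in all 6 libraries of SCNT4c and SCNT4c-KG and in SCNT8c, and had 41.8, 82.8 and 39.8 in SCNT4c-TDG, with a mean of 84.2 in PFF. RECK, an inhibitor of matrix metalloproteinases, had the higher SCNT4c-TDG values 102, 157 and 135, and was kept out by a SCNT4c-KG mean of 10.3. RARRES1, a retinoic acid-responsive gene, had 125, 101 and 118 and a SCNT4c-KG mean of 11.9. Its mean was 2.48 in PFF and 0 in SCNT8c, so it is a further gene on in SCNT4c-TDG and near 0 in PFF. RUNX3, a transcription factor of blood and neural cells, had 76.9, 53.7 and 35.2, with a PFF mean of 8.91.

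EPM2A, the phosphatase laforin of glycogen metabolism, was the joining gene with a mean of 60 or more in SCNT8c. Its means were 113 in SCNT8c, 96.5 in SCNT4c-TDG and 795 in PFF. These genes were chosen after their values were seen, and their values are given with no test.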
